A study of Danio rerio with 12 samples.

Results

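The digestive serine proteases of the exocrine pancreas were followed under 9 symbols: the trypsins *prss1*, *prss59.1* and *prss59.2*, the chymotrypsins *ctrl* and *ctrb1*, and the elastases *ela2*, *ela2l*, *ela3l* and *CELA1*. Each symbol was looked up, in any case, in the table that pairs gene identifiers with names, and every identifier that matched was kept. This gave 10 of the 37541 identifiers in the files. *CELA1* stood for 2 identifiers, ENSDARG00000017314 and ENSDARG00000043175, which are treated separately here. *ctrb1* had no match in that table and was reached only through a RefSeq synonym, as *ctrb.1* (ENSDARG00000090428).

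Acinar cells of the pancreas make these enzymes as inactive precursors and release them into the gut. Trypsin cuts proteins after lysine or arginine and also activates the other precursors, chymotrypsin cuts mainly after large hydrophobic residues, and elastase after small ones. In zebrafish larvae the trypsin and elastase genes are commonly used to mark the exocrine pancreas.

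RNA of whole larvae of the AB strain was sequenced from 3 libraries of homozygous *ercc2/xpd* mutants (ercc2/xpd -/-) and 3 of siblings at 5 days post-fertilization (dpf), and from 3 of each at 7 dpf. The siblings were wild-type and heterozygous larvae together, with proportions not given, and each library was a pool of 30 larvae. The mutants carried 1 allele, a short CRISPR/Cas9 deletion near the end of the gene that is predicted to truncate a helicase subunit of the transcription and repair complex TFIIH. In whole larvae, fewer acinar cells and less RNA per acinar cell cannot be told apart. Nothing in the labels ties the pools to separate clutches, so the p-values measure the spread between pools, which may be technical in part.

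Values are the deposited FPKM, reads or fragments scaled by the length of the gene model and by a factor for each library. This factor followed the median of ratios size factor described with the processing, not the total of reads. The low values of each library came out as whole multiples of 1 read, which gave 13403615 to 15084280 reads per library. *ERCC2* itself was at 2.56 to 3.57 FPKM in the mutant libraries and 3.78 to 6.38 FPKM in the sibling libraries. The 2 mutant libraries numbered 1 stood apart for the proteases. At 5 dpf this library held the lowest FPKM of the 3 for 9 of the 9 proteases tested, and at 7 dpf the library of that number held the highest FPKM for 8 of 9. In 8 proteases, all tested but *CELA1* ENSDARG00000043175, mutant library 1 was 2.73 to 13.3 times below the mean of the other mutant libraries at 5 dpf and 4.35 to 14.1 times above it at 7 dpf. The summed FPKM of 11 other acinar enzymes (carboxypeptidases, amylase, lipases and syncollin) moved with it, 2.90 times below and 3.82 times above. That of 4 acinar transcription factors did not rise at 7 dpf. In mutant library 1 it was 0.743 times that of the other mutant libraries at 5 dpf and 0.781 times at 7 dpf, from low sums of 2.18 to 4.10 FPKM. The summed level of 8 islet marker identifiers in that library was 0.911 times that of the other mutant libraries at 5 dpf and 1.33 times at 7 dpf, and that of 6 liver markers was 1.30 and 1.15 times. The summed level of 7 enterocyte markers was 0.447 and 1.44 times. Sibling library 1 was also low for the proteases, at 0.559 times the mean of the other sibling libraries at 5 dpf and 0.831 times at 7 dpf. For the other acinar enzymes it was at 0.629 and 0.815 times, and for the enterocyte markers at 0.625 and 1.05 times. The islet markers were at 0.747 and 0.683 times, the liver markers at 0.747 and 0.831 times and the acinar transcription factors at 0.660 and 0.507 times. Serine proteases made outside the pancreas were at 1.06 and 0.943 times. The shortfall in sibling library 1 was thus not particular to the proteases. What sets the libraries numbered 1 apart was not tested.

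**Figure D1:**
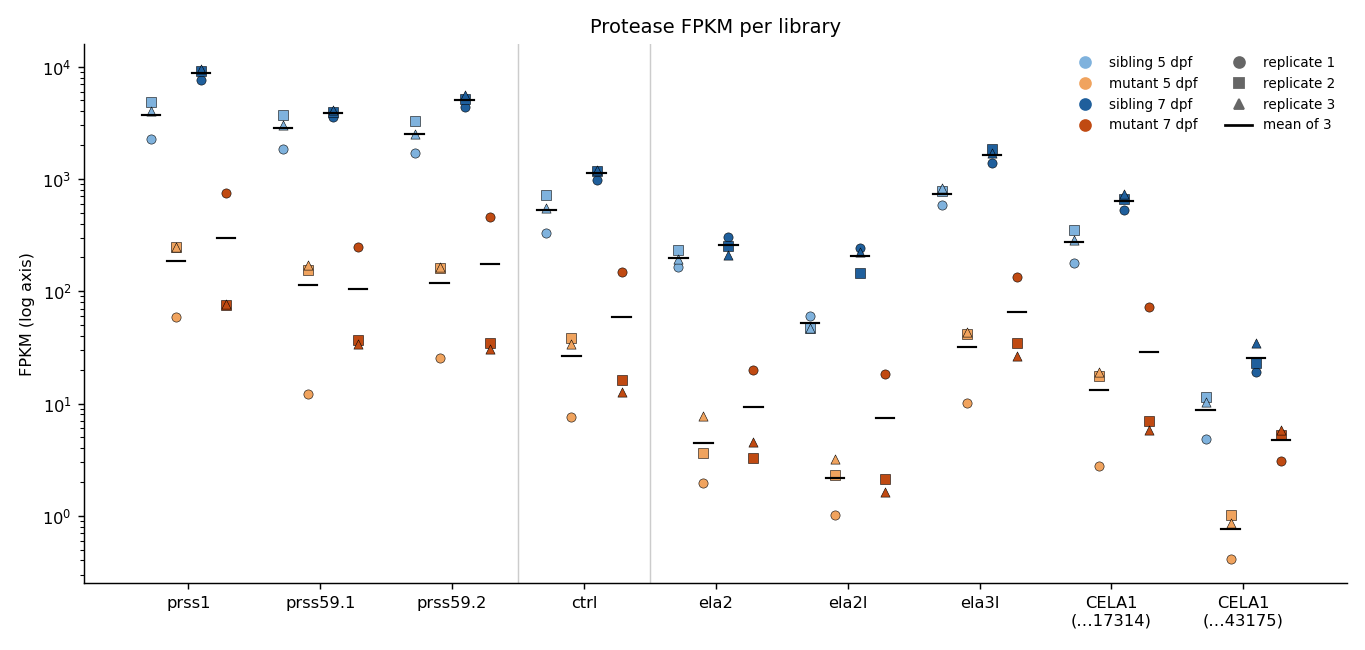
FPKM (log axis) of the 9 tested proteases in each of the 12 libraries, ordered as trypsins, chymotrypsin and elastases. Colour gives the group, the marker shape the replicate number, and a black line the mean of 3 libraries. No mutant library reached the lowest sibling library of its age for any of the 9 genes.

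In siblings the trypsins were the most abundant of these transcripts at both ages. The 10 genes together summed to 7140.1, 14066 and 11477 FPKM in the sibling libraries at 5 dpf and to 121, 667 and 694 FPKM in the mutant libraries. At 7 dpf the sums were 19040.0, 22339 and 23465 FPKM in siblings and 1849.0, 216 and 199 FPKM in mutants. In reads, the genes took 0.776% to 1.28% of a sibling library at 5 dpf and 1.77% to 2.39% at 7 dpf, against 0.0131% to 0.0817% and 0.0201% to 0.229% of a mutant library. The groups did not overlap at either age. The mean log2 of the sum in mutants minus that in siblings was -4.78 in the younger and -5.65 in the older larvae. An exact permutation test, two-sided, gave p = 0.1 at each age, which is the smallest p that 3 against 3 libraries allow (0.170 after Benjamini-Hochberg adjustment over all 56 exact tests computed on sums, shares and ratios, which share libraries and genes).

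All 9 proteases tested were lower in mutants at both ages by limma, at a Benjamini-Hochberg adjusted p under 0.05 over 23648 genes. Among all tested genes 2.16% were called lower at 5 dpf and 3.25% at 7 dpf. The 3 mutant libraries lay below the 3 sibling libraries for each of the 9 at both ages, as they did for 10.3% of all tested genes at 5 dpf and 12.9% at 7 dpf. The median log2 fold change over the 9 was -4.65 at 5 dpf and -5.39 at 7 dpf, beside 0.02 and 0.01 over all tested genes. These genes were chosen with earlier results of the same data known, so the counts describe them and are no independent test. 8 of the 9 were at 0.5 FPKM or more in all 12 libraries, so they did not enter the test through the siblings alone, and *CELA1* ENSDARG00000043175 was at or above that level in 11.

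*prss1* (ENSDARG00000042993) encodes a trypsin and lies on chromosome 16 of GRCz11, from 25080764 to 25085327 on the minus strand. Its FPKM in the 5 dpf siblings was 2272, 4889.8 and 4039.5, beside 59.4, 246 and 249.6 in their mutants. The 7 dpf siblings had 7621, 9121 and 9635 FPKM, and the mutants 745, 76.1 and 76.5 FPKM. It was the most abundant of the 10 genes in every group, and in siblings at 7 dpf it ranked 6 among all genes by mean FPKM. On the log2(FPKM + 0.5) scale used throughout for fold changes, mutants differed from siblings by -4.52 ± 0.78 (SE, limma adjusted p = 0.00753) at 5 dpf and -5.74 ± 0.78 (limma adjusted p = 0.00108) at 7 dpf.

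*prss59.1* (ENSDARG00000079274) and *prss59.2* (ENSDARG00000073742) are 2 further trypsin genes that lie side by side on the plus strand of chromosome 16, from 26012569 to 26013851 and from 26017360 to 26018694, with 3508 bases between them. *prss59.1* was at 1850.5, 3716 and 3017 FPKM in the 5 dpf siblings and at 12.3, 154 and 172 FPKM in the mutants. The values for 7 dpf were 3574, 3985 and 4156 FPKM in the siblings and 246, 36.6 and 34.2 FPKM in mutants. The lowest mutant library at 5 dpf held 162 reads of it, so the gap between that library and the other 2 was larger than counting error. *prss59.2* was at 1690.1, 3312 and 2506 FPKM in siblings and 25.6, 162 and 164 FPKM in mutants at 5 dpf. Siblings of 7 dpf had 4373, 5106 and 5554 FPKM and mutants 462, 34.7 and 30.8 FPKM, again with no overlap. The log2 fold change of *prss59.1* was -5.30 ± 0.91 (SE, limma adjusted p = 0.00737) at 5 dpf and -5.84 ± 0.91 (limma adjusted p = 0.00273) at 7 dpf. For *prss59.2* it was -4.76 ± 0.91 (limma adjusted p = 0.0139) and -5.96 ± 0.91 (limma adjusted p = 0.00242). The call of *prss59.2* at 5 dpf was lost without mutant library 1 of that age (log2 fold change -3.88, limma adjusted p = 0.0646) and without sibling library 2 (-4.53, limma adjusted p = 0.0700). The sources used here do not say how reads shared by these near neighbours were assigned, so their separate levels are less certain than their sum.

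*ctrl* (ENSDARG00000068680) encodes a chymotrypsin-like enzyme and lies on chromosome 15 from 37820258 to 37829160 on the minus strand. It was at 329, 724 and 548 FPKM in the 5 dpf siblings against 7.63, 38.1 and 34.2 FPKM in the mutants. The 7 dpf libraries gave 987, 1180.0 and 1210.4 FPKM for siblings and 148, 16.3 and 12.5 FPKM for mutants. The groups were apart at both ages, with a log2 fold change of -4.52 ± 0.80 (SE, limma adjusted p = 0.00871) at 5 dpf and -5.13 ± 0.80 (limma adjusted p = 0.0027) at 7 dpf.

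The other chymotrypsin, *ctrb.1*, on chromosome 7 from 35075847 to 35079299, was almost unread. It had 4, 1 and 8 reads in the sibling libraries and 0, 0 and 1 in the mutant libraries at 5 dpf, a ratio of siblings to mutants of 14.3 with a 95% counting interval of 2.15 to 609. At 7 dpf it had 3, 7 and 11 reads in siblings and 0 in each mutant library. Siblings were 8.17-fold higher when the mutant group was set at a floor of 3 reads over its 3 libraries. This ratio leaves out the counting error of the sibling reads and is not a bound. It was never at 0.5 FPKM and was not tested. Its neighbours *ctrb.2* and *ctrb.3*, which the symbols did not ask for and which were added once the gene names had been read, were at most at 0.268 and 1.57 FPKM. Almost all reads assigned to these chymotrypsin genes were thus those of *ctrl*. The sources used here do not say how reads shared by the neighbouring *ctrb* copies were assigned. The low counts of these copies may therefore understate their levels.

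Among the elastases, *ela3l* (ENSDARG00000007276, chromosome 5 from 26111596 to 26118855, minus strand) was the most abundant by FPKM. It was at 589, 781 and 827 FPKM in siblings and 10.1, 41.3 and 43.2 FPKM in mutants at 5 dpf. At the later age siblings had 1389, 1865 and 1701 FPKM and mutants 134, 34.9 and 26.8 FPKM. Its log2 fold change was -4.75 ± 0.58 (SE, limma adjusted p = 0.00128) at 5 dpf and -5.02 ± 0.58 (limma adjusted p = 0.000362) at 7 dpf. In the mutant libraries numbered 2 and 3 at 7 dpf, *ela3l* was at 2.11% and 1.62% of the sibling mean, whereas *prss1* was at 0.865% and 0.870% of it.

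*ela2* (ENSDARG00000056744) and *ela2l* (ENSDARG00000056765), which encode elastases of the same type, lie on opposite strands of chromosome 8, from 21376290 to 21381734 and from 21366771 to 21372485, with 3804 bases between them. *ela2* was at 165, 233 and 194 FPKM in siblings and 1.95, 3.60 and 7.77 FPKM in mutants at 5 dpf, and at 304, 254 and 211 FPKM against 20.1, 3.27 and 4.53 FPKM at 7 dpf. Its log2 fold change at 5 dpf, -5.49 ± 0.55 (SE, limma adjusted p = 0.000332), was the largest of the 9 at that age, and at 7 dpf it was -5.12 ± 0.55 (limma adjusted p = 0.00021). *ela2l* was at 60.3, 47.4 and 47.3 FPKM in siblings and 1.01, 2.32 and 3.18 FPKM in mutants at 5 dpf, and at 242, 146 and 225 FPKM against 18.4, 2.11 and 1.62 FPKM at 7 dpf. The log2 fold change of *ela2l* was -4.37 ± 0.64 (limma adjusted p = 0.00296) and -5.41 ± 0.64 (limma adjusted p = 0.000426). In the lowest mutant libraries these 2 genes had 22 to 48 reads, so their level there is known less closely than that of the trypsins. The span of *ela2l* overlaps *alas2* on the other strand, a gene with 2 reads in all 12 libraries together.

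The 2 *CELA1* copies, which encode elastases of another type, lie in tandem on the plus strand of chromosome 22. ENSDARG00000017314, from 7439186 to 7447391, was at 179, 352 and 288 FPKM in siblings and 2.76, 17.6 and 19.05 FPKM in mutants at 5 dpf. Its level at 7 dpf was 531, 658 and 737 FPKM in siblings and 72.8, 7.04 and 5.84 FPKM in mutants. Its log2 fold change was -4.65 ± 0.84 (SE, limma adjusted p = 0.00995) at 5 dpf and -5.39 ± 0.84 (limma adjusted p = 0.00276) at 7 dpf. The call in the younger larvae was lost without sibling library 2 (-4.44, limma adjusted p = 0.0525). Its gene model is 5031 bases long, against 850 to 1918 bases for the other 9 genes, so it ranked 6 of 10 by FPKM but 4 of 10 by reads in siblings. It overlaps 3 genes on the other strand with 50, 18 and 16 reads in all.

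ENSDARG00000043175, from 7462997 to 7470338, begins 15605 bases past its end and was far lower, at 4.84, 11.3 and 10.4 FPKM in siblings and 0.413, 1.01 and 0.861 FPKM in mutants at 5 dpf. The levels at 7 dpf were 19.002, 22.8 and 34.6 FPKM in siblings and 3.06, 5.25 and 5.77 FPKM in mutants. Here the mutant library numbered 1 was the lowest of its group at 7 dpf as well, unlike for the other 8 genes. The log2 fold change was -2.84 ± 0.34 (SE, limma adjusted p = 0.000991) at 5 dpf and -2.32 ± 0.34 (limma adjusted p = 0.00163) at 7 dpf, the smallest of the 9 at each age. The mutant libraries at 5 dpf held only 8 to 20 reads of this copy.

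**Figure D2:**
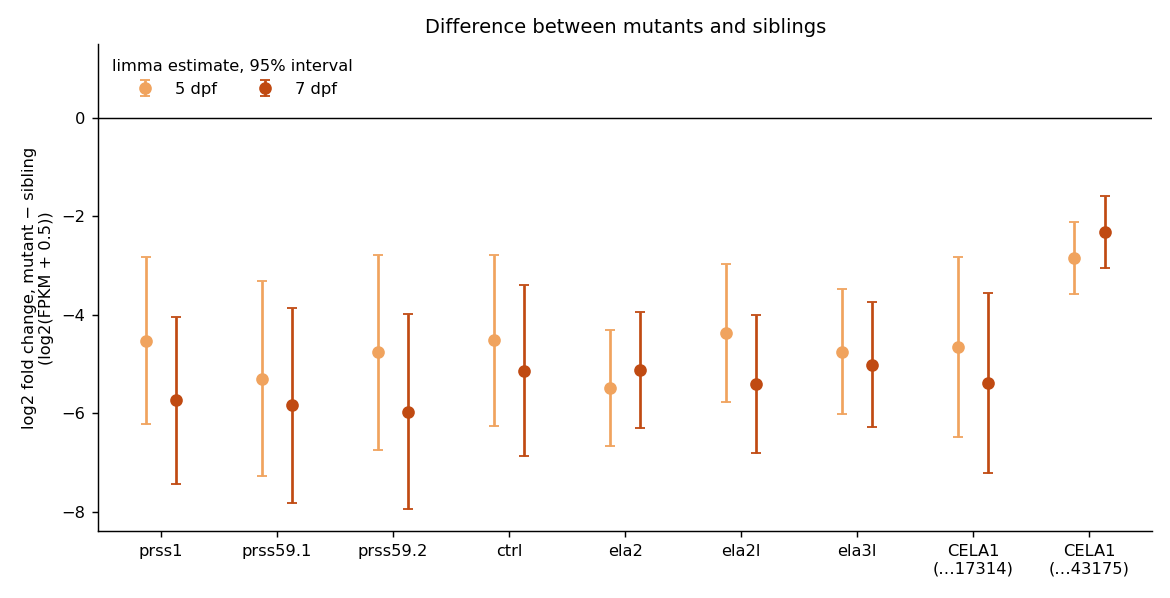
Log2 fold change of mutants against siblings for the 9 tested proteases at 5 and 7 dpf, as limma estimates on log2(FPKM + 0.5) with their 95% intervals. All intervals lie below 0, and those of CELA1 ENSDARG00000043175 (-3.57 to -2.11 and -3.05 to -1.59) are nearest to it.

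The order of the genes by mean FPKM in siblings differed between the ages in 1 pair. At 5 dpf it was *prss1*, *prss59.1*, *prss59.2*, *ela3l*, *ctrl*, *CELA1* ENSDARG00000017314, *ela2*, *ela2l*, *CELA1* ENSDARG00000043175 and *ctrb.1*, and at 7 dpf *prss59.2* stood before *prss59.1*. The ranges over the 3 sibling libraries overlapped at 5 dpf among the 3 trypsins, between *ela3l* and *ctrl*, between *ctrl* and *CELA1* ENSDARG00000017314 and between the latter and *ela2*. At 7 dpf only *ela2* and *ela2l*, of neighbours in the order, overlapped. In mutants of both ages the means followed the order of the 7 dpf siblings, and every pair of neighbours down to *CELA1* ENSDARG00000043175 overlapped. The tighter spread at 7 dpf also shows in the sums, whose highest sibling library was 1.23 times the lowest at 7 dpf and 1.97 times at 5 dpf.

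The next question was how the enzymes differed between the ages in each genotype. In siblings, 7 of the 9 tested genes were higher in all 3 libraries at 7 dpf than in any at 5 dpf (20.5% of all tested genes were), and *prss59.1* and *ela2* overlapped. limma called 2 of the 9 as higher, where 12.3% of all tested genes were called higher. The larger change was that of *ela2l*, with a log2 fold change of 1.95 ± 0.64 (SE, limma adjusted p = 0.0432). *CELA1* ENSDARG00000043175 rose by 1.51 ± 0.34 (limma adjusted p = 0.0065). The call of *ela2l* was lost under 10 of 24 alternatives, where its limma adjusted p reached 0.113. The other 7 had log2 fold changes from 0.38 (*ela2*) to 1.30 (*prss1*), with standard errors of 0.55 to 0.91 that the mutant libraries helped to set. When only the sibling libraries entered the fit, 7 of the 9 were called higher, where 9.99% of all tested genes were. *prss1*, *prss59.2*, *ctrl*, *ela3l* and *CELA1* ENSDARG00000017314 were added then, at limma adjusted p-values of 0.00594 to 0.0305, and *prss59.1* and *ela2* were not called.

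In mutants, only *CELA1* ENSDARG00000043175 was called between the ages, with 11.4% of all tested genes called in either direction. It rose by 2.03 ± 0.34 on the log2 scale (SE, limma adjusted p = 0.00319), and its 3 libraries at 7 dpf lay above the 3 at 5 dpf. The other 8 overlapped between the ages, with log2 fold changes from -0.15 (*prss59.2*) to 0.91 (*ela2l* and *ela3l*). Whether the mutant effect itself differed with age was tested by the interaction, which was called for 0 of the 9 and for 0% of all tested genes by limma, with 0 of the 9 proteases and 2455 of all genes at an unadjusted p under 0.05. limma on the recovered reads with voom weights also called 0 of the 9. The estimates ran from -1.22 (*prss1*, 95% interval -3.61 to 1.18) to 0.52 (*CELA1* ENSDARG00000043175, -0.51 to 1.55), and the wide intervals of the 8 others do not bound the difference closely.

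The comparisons between ages turned on the 2 mutant libraries numbered 1 together, while leaving out either alone changed the count of neither the mutants nor the interaction. Without both, an alternative chosen after the values were seen that leaves 2 mutant libraries at each age, 6 of the 9 were called between the ages in mutants, where 4.52% of all tested genes were called in either direction. The log2 fold change of 7 against 5 dpf was then -1.69 for *prss1*, -2.19 for *prss59.1*, -2.31 for *prss59.2*, -1.31 for *ctrl* and -1.44 for *CELA1* ENSDARG00000017314, at limma adjusted p-values of 0.00503 to 0.0440, and *CELA1* ENSDARG00000043175 stayed higher at 7 dpf. The estimates of *ela2* (-0.42), *ela2l* (-0.46) and *ela3l* (-0.46) also turned negative and were not called. Without the library of 7 dpf alone *prss1* was already at -1.01 (limma adjusted p = 0.287), and without that of 5 dpf alone at -0.60 (limma adjusted p = 0.73). The mutant effect then differed between the ages for 5 of the 9, *prss1* (-2.99), *prss59.1* (-2.69), *prss59.2* (-3.35), *ela2l* (-2.40) and *CELA1* ENSDARG00000017314 (-2.72), at limma adjusted p-values of 0.0229 to 0.0468, where 0.0732% of all tested genes were called. Since the libraries were picked by the levels of these same genes, the calls without them are a description. All 9 genes stayed called lower in mutants than in siblings at both ages.

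The size of the mutant effect also moved with these libraries. Without mutant library 1 of 5 dpf, the log2 fold change at that age was -3.84 for *prss1*, -4.07 for *prss59.1*, -3.88 for *prss59.2*, -3.79 for *ctrl*, -4.08 for *ela3l* and -3.81 for *CELA1* ENSDARG00000017314, which moves the folds by 1.59 to 2.34 times toward the siblings. For *ela2*, *ela2l* and *CELA1* ENSDARG00000043175 the move was 1.16 to 1.33 times. Without mutant library 1 of 7 dpf, the log2 fold change was -6.83 for *prss1*, -6.76 for *prss59.1*, -7.23 for *prss59.2*, -6.24 for *ctrl*, -5.87 for *ela2*, -6.41 for *ela2l*, -5.72 for *ela3l* and -6.53 for *CELA1* ENSDARG00000017314, a move of 1.63 to 2.41 times away from the siblings. *CELA1* ENSDARG00000043175 moved the other way, by 1.19 times toward the siblings, to -2.07. Of the other libraries, mutant library 3 moved *prss59.1* at 5 dpf to -5.95 and, at 7 dpf, *prss59.2* to -5.29, *ctrl* to -4.49 and *CELA1* ENSDARG00000017314 to -4.76 when it was left out, and mutant library 2 moved *prss59.2* at 7 dpf to -5.37. Slightly smaller moves, such as that of *prss59.1* at 5 dpf to -5.87 without mutant library 2, are not all listed.

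**Figure D3:**
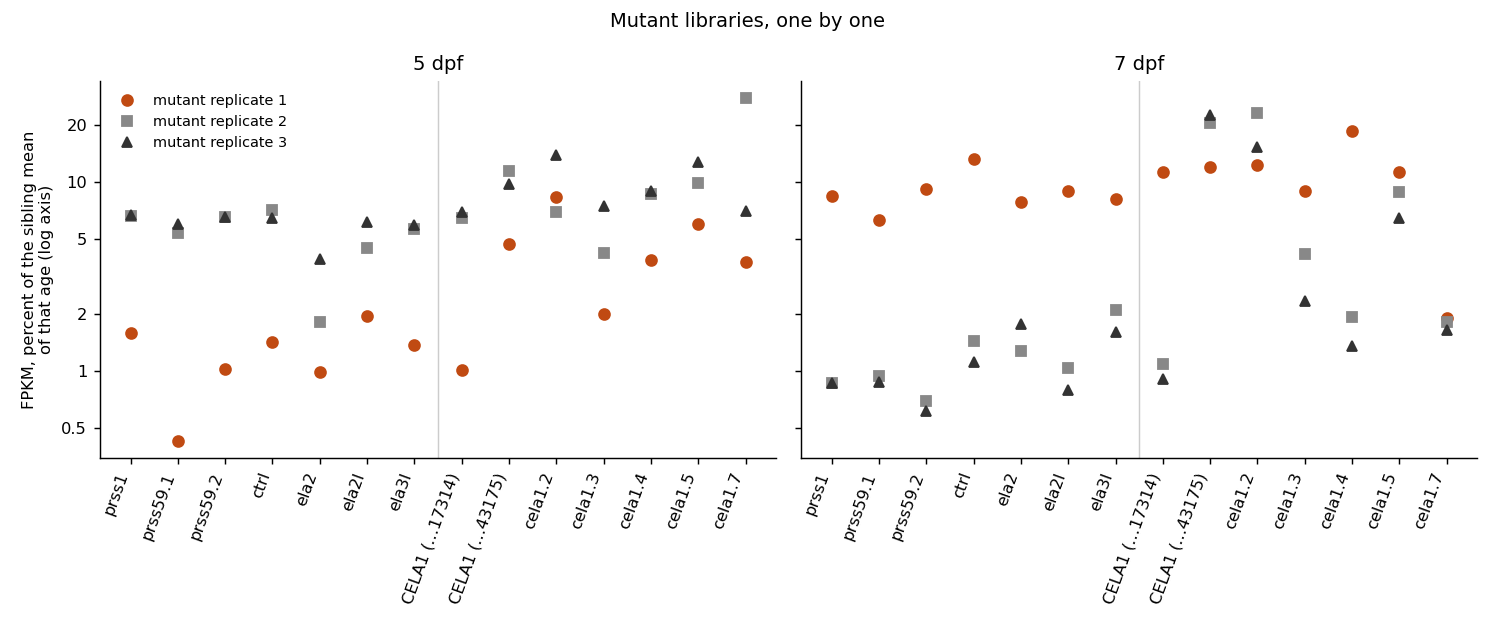
FPKM of each mutant library as a percent of the sibling mean of its age (log axis), at 5 dpf (left) and 7 dpf (right), for 7 proteases and, right of the grey line, the elastase genes of the chromosome 22 cluster in order of position. Circle, square and triangle stand for replicates 1, 2 and 3. At 7 dpf library 1 lies between 6.29% and 13.2% for 8 of the 9 tested proteases and the others between 0.614% and 2.11%, whereas for CELA1 ENSDARG00000043175 library 1 is the lowest, at 12.01%.

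The elastase genes of chromosome 22 form a run of 6 genes in 1 orientation, the 2 *CELA1* copies followed by *cela1.2*, *cela1.3*, *cela1.4* and *cela1.5*, with gaps of 2081 to 15605 bases. *cela1.7* lies 230071 bases further on. The *cela1* symbols were not among the 9 asked for and were added for their names. All 5 were called lower in mutants at both ages, with log2 fold changes from -4.17 (*cela1.3*) to -2.52 (*cela1.7*) at 5 dpf and from -4.74 (*cela1.7*) to -2.45 (*cela1.2*) at 7 dpf.

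The copies differed in how mutant library 1 at 7 dpf stood to the other mutant libraries. It was 11.3 times their mean for *CELA1* ENSDARG00000017314 and 11.2 times for *cela1.4*, 2.76 times for *cela1.3* and 1.48 times for *cela1.5*. For *CELA1* ENSDARG00000043175 it was 0.555 times and for *cela1.2*, the next gene along, 0.643 times their mean. *cela1.7* was at 0.512, 0.489 and 0.443 FPKM in the 3 libraries, with 3 or 4 reads each. At 5 dpf library 1 was below the mean of the others for all 7 genes of this chromosome, from 0.151 times for *CELA1* ENSDARG00000017314 to 0.796 times for *cela1.2*. *prss59* (ENSDARG00000076602), which shares a symbol root with the trypsins and lies on chromosome 15, was at 5.22 to 10.6 FPKM in all 12 libraries. It was not called at either age (log2 fold change -0.63, limma adjusted p = 0.0539, and -0.02, limma adjusted p = 0.958). At 5 dpf its mutant libraries (5.22 to 7.06 FPKM) did lie below its sibling libraries (9.10 to 10.6 FPKM), as for 10.3% of all tested genes. At 7 dpf they overlapped.

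Ratios within a library remove the scaling between libraries and show how the copies shifted against each other. *prss59.2* over *prss59.1* was 0.913, 0.891 and 0.831 in the younger siblings and 1.22, 1.28 and 1.34 in the older, so the order of this pair was reversed between all sibling libraries of the 2 ages. How reads shared by these neighbours were assigned is not given, so the reversal is that of the deposited FPKM. The mutant libraries of 5 dpf had ratios of 2.09, 1.054 and 0.958 and those of 7 dpf 1.88, 0.948 and 0.901. The high values were those of the libraries numbered 1, and the other mutant libraries lay between 0.901 and 1.054. *prss1* over *prss59.1* was 1.23, 1.32 and 1.34 in the younger siblings and 2.13, 2.29 and 2.32 in the older. Mutants had ratios of 4.84, 1.599 and 1.45 in the younger larvae and 3.03, 2.08 and 2.24 in the older. The library numbered 1 was the highest at each age, and the other mutant libraries lay above all siblings at 5 dpf, while at 7 dpf 1 lay within the sibling range and 1 just below it. The exact permutation test, two-sided, gave p = 0.1, the smallest possible, for both ratios between the ages in siblings and between mutants and siblings at 5 dpf (0.170 adjusted over the 56 tests), and p = 0.9 for both between the genotypes at 7 dpf.

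*ela2* over *ela2l* was 2.74, 4.91 and 4.10 in the younger siblings and 1.25, 1.75 and 0.938 in the older. The sibling libraries of the 2 ages did not overlap in this ratio. In mutants it was 1.94, 1.55 and 2.45 at 5 dpf, below every sibling library of that age, and 1.09, 1.55 and 2.80 at 7 dpf, where the groups overlapped. With few reads of both genes, the counting interval of mutant library 1 at 5 dpf ran from 1.06 to 3.57. The exact permutation p was 0.1 between the genotypes at 5 dpf and between the ages in siblings, and 0.5 between the genotypes at 7 dpf.

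*CELA1* ENSDARG00000017314 over ENSDARG00000043175 was 36.9, 31.0 and 27.8 in the younger siblings and 27.9, 28.9 and 21.3 in the older. In mutants it was 6.69, 17.4 and 22.1 at 5 dpf. At 7 dpf it was 23.8 in library 1, within the range of siblings, and 1.34 and 1.01 in libraries 2 and 3, whose counting intervals (1.09 to 1.66 and 0.811 to 1.28) lie far below it. In those 2 libraries the copies were thus at nearly equal FPKM. Their reads were 584 against 108 in library 2 and 401 against 98 in library 3, over gene models of 5031 and 1246 bases. How reads shared within this gene cluster were assigned is not given, and the counting intervals do not cover it. The exact permutation p between the genotypes was 0.1 at 5 dpf, where the groups were apart, and 0.2 at 7 dpf, where library 1 overlapped the siblings.

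**Figure D4:**
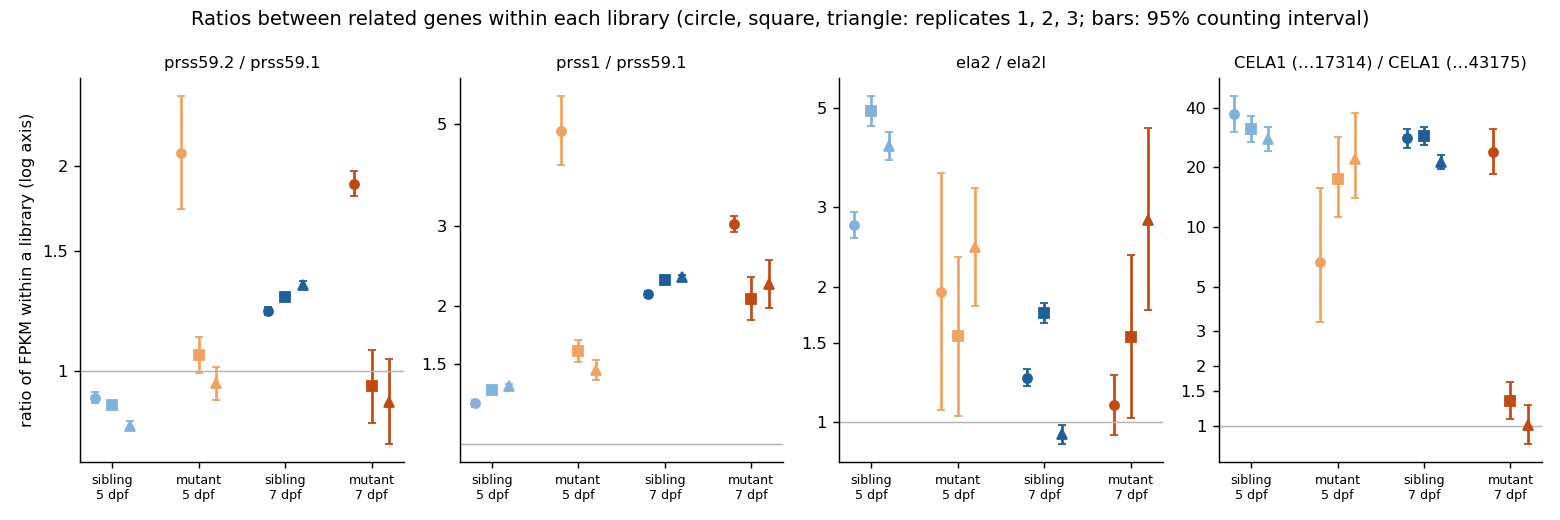
Ratio of FPKM of 2 related genes within each library (log axis) for 4 pairs, by group. Each point is a library and its bar the 95% counting interval, and the grey line marks a ratio of 1. The prss59.2 to prss59.1 ratio lies below 1 in the 3 sibling libraries at 5 dpf and above 1 at 7 dpf, and the ratio of the CELA1 copies is 1.34 and 1.01 in mutant libraries 2 and 3 at 7 dpf.

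The mix of enzyme classes overlapped between the genotypes at 5 dpf and not at 7 dpf. Trypsins made up 81.4%, 84.7% and 83.3% of the summed FPKM in siblings and 80.3%, 84.4% and 84.4% in mutants at 5 dpf, a mean difference of -0.125 percentage points (exact permutation test, two-sided, p = 0.8, or 0.914 adjusted over the 56 tests). At 7 dpf they made up 81.8%, 81.5% and 82.4% in siblings and 78.6%, 68.1% and 71.3% in mutants, a mean difference of -9.26 points (exact permutation test, two-sided, p = 0.1, the smallest possible with 3 against 3 libraries, and 0.170 adjusted over the 56 tests). The mutant libraries at 7 dpf were all below the siblings, with library 1 nearest to them. Elastases took 13.4%, 24.3% and 22.4% of the sum in mutants at 7 dpf, against 13.1%, 13.2% and 12.4% in siblings, and chymotrypsins 8.02%, 7.55% and 6.32% against 5.19%, 5.28% and 5.16%. Of the elastases, *ela3l* took the largest share by FPKM, 7.24% to 16.1% of the sum in mutants and 7.25% to 8.35% in siblings. By reads, which weight the long *CELA1* model more, trypsins were 57.1% ± 3.7 (SD, n = 3) of the 10 genes in mutants and 67.4% ± 0.26 in siblings at 7 dpf.

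**Figure D5:**
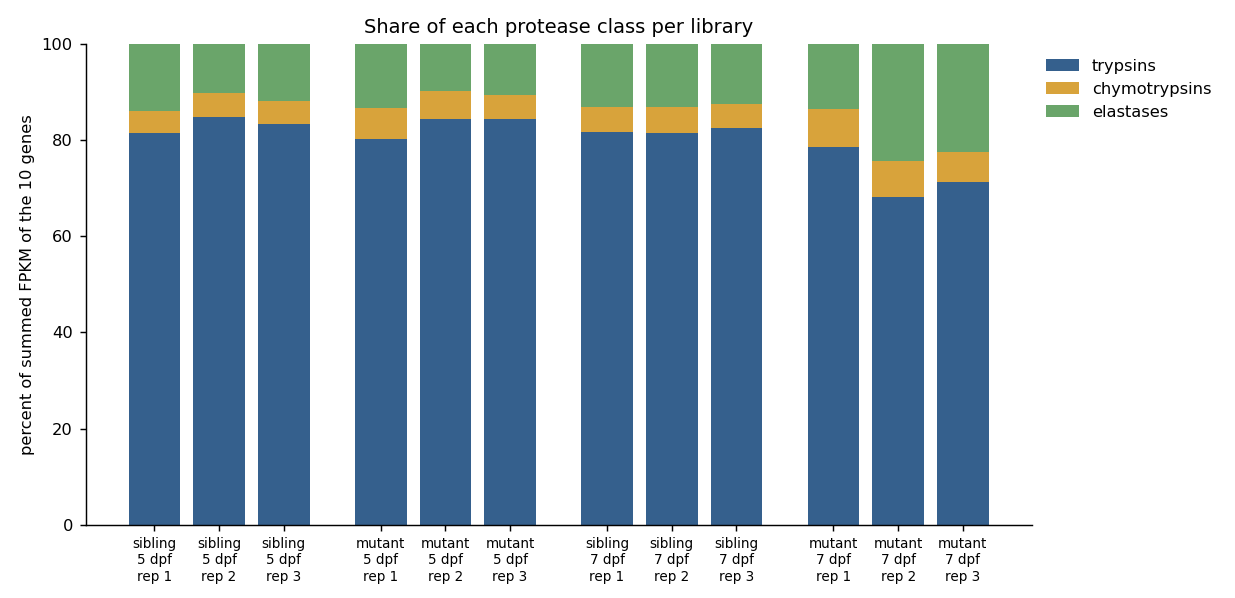
Percent of the summed FPKM of the 10 genes that trypsins, chymotrypsins and elastases took in each of the 12 libraries. Trypsins take 80.3% to 84.7% at 5 dpf in both groups and 68.1% to 78.6% in the mutants at 7 dpf.

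The levels of 8 of the 9 tested genes deviated together from library to library. After the mean of its group was taken off, each of the 8 proteases other than *CELA1* ENSDARG00000043175 followed the mean of the other members over the 12 libraries with Pearson r of 0.852 to 0.998, and that copy with r = -0.0154. The 12 points share the scaling of each library and the 2 mutant libraries numbered 1 hold the widest deviations. The 5 other genes most like the mean of the members by this measure, among named genes with a mean of at least 5 FPKM, were *c6ast4* (r = 0.995), *CPA1* (ENSDARG00000021339, r = 0.987), *amy2a* (r = 0.983), *mapta* (r = 0.969) and *SYCN* (ENSDARG00000103687, r = 0.968). 4 of them were called lower in mutants at both ages, and *mapta* was not, with log2 fold changes of -0.25 and -0.11 (limma adjusted p = 0.698 and 0.857). *c6ast4* was at 215 to 342 FPKM in siblings and 1.101 to 16.7 FPKM in mutants at 5 dpf, and at 479.8 to 622 FPKM against 3.45 to 64.9 FPKM at 7 dpf.

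The other enzymes of the acinar cell gave the nearest comparison. All 11 listed, carboxypeptidases, amylase, carboxyl ester lipases, phospholipase and syncollin, were called lower in mutants at both ages, with a median log2 fold change of -3.86 at 5 dpf and -4.42 at 7 dpf. The largest were those of the starch-digesting *amy2a*, -4.65 ± 0.59 and -5.21 ± 0.59 (SE, limma adjusted p = 0.00141 and 0.00029). *CPA1* ENSDARG00000021339, a carboxypeptidase that removes residues from the C-terminal end, followed with -4.22 ± 0.65 and -4.86 ± 0.65 (limma adjusted p = 0.00362 and 0.000986). The summed FPKM of this list ran from 74.3 to 222 in mutants and 1909 to 3193 in siblings at 5 dpf, and from 138 to 562 against 5353 to 6698 at 7 dpf. Of the 4 transcription factors of acinar cells, 1 was called lower at 5 dpf, *BHLHA15* (-1.55 ± 0.31, limma adjusted p = 0.0182). At 7 dpf 2 were, *PTF1A* (-1.75 ± 0.38, limma adjusted p = 0.0185) and *RBPJL* (-1.25 ± 0.27, limma adjusted p = 0.0184), and all 4 were below 5 FPKM on average in every group. At such levels the 0.5 FPKM added before taking logs understates the change. *RBPJL* had means of 0.146 FPKM in mutants and 1.08 FPKM in siblings at 7 dpf, and *BHLHA15* had 0.395 and 2.27 FPKM at 5 dpf.

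Genes that activate, inhibit or respond to trypsin were mixed. Of 6 tested, limma called 2 lower in the younger mutants and 4 in the older, and 0 higher. *spink4*, a member of the Kazal family of serine protease inhibitors, had a log2 fold change of -3.01 ± 0.27 at 5 dpf and -3.16 ± 0.27 at 7 dpf (SE, limma adjusted p = 0.00022 and 5.38e-05). *serpina1* and *serpina1l*, liver-made inhibitors of serine proteases, had -1.07 (limma adjusted p = 0.103) and -1.72 (limma adjusted p = 0.00328) at 5 dpf and -3.06 and -2.64 (limma adjusted p = 0.000151 and 0.000116) at 7 dpf. *tmprss15*, the enteropeptidase that starts trypsin activation, was at or near 0 in all groups and was not tested. Of 25 tested serine proteases made outside the pancreas, such as those of blood clotting, 2 were called lower at 5 dpf and 7 at 7 dpf. Among all tested genes 2.16% and 3.25% were. The median log2 fold changes of the 25 were -0.00 and -0.22. The largest called changes at both ages were those of *habp2* (-1.70 and -1.83) and *F7* ENSDARG00000075827 (-1.23 and -1.81).

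Markers of the neighbouring organs were read for the same libraries. Of 7 islet genes tested, 1 was called lower and 2 higher at 5 dpf, and 3 higher at 7 dpf. Among all 23648 tested genes, 155 were called higher and 511 lower at 5 dpf, and 426 higher and 768 lower at 7 dpf. *NEUROD1*, a transcription factor of endocrine cells and neurons, was lower at 5 dpf, at -2.07 ± 0.30 on the log2 scale (SE, limma adjusted p = 0.00296), and at -0.75 (limma adjusted p = 0.194) at 7 dpf. The glucagon genes were higher, *gcga* by 1.97 ± 0.21 and 2.18 ± 0.21 (limma adjusted p = 0.000408 and 9.71e-05) and *GCG* ENSDARG00000040907 by 1.93 and 3.08 (limma adjusted p = 0.0112 and 0.000359). *sst2* was called higher only at 7 dpf, by 2.08 (limma adjusted p = 0.00192). *pdx1*, an islet transcription factor, was near 0 FPKM in every group and was not tested. Islet markers summed to 18.9 to 21.5 FPKM in mutants and 19.8 to 28.5 FPKM in siblings at 5 dpf, and to 31.5 to 43.0 against 12.6 to 19.4 FPKM at 7 dpf. *NEUROD1* was the largest part of the sibling sum at 5 dpf, at a mean of 13.5 FPKM against 2.94 FPKM in mutants. The 2 *PAX6* identifiers, matched by family name for *pax6b*, added 1.64 and 4.74 FPKM in siblings against 0.839 and 2.65 FPKM in mutants. They were not called (limma adjusted p = 0.119 and 0.264). The sibling sum at 5 dpf thus came more from these transcription factors than from hormone genes. The hormone genes *ins*, *gcga*, *GCG* and *sst2* went the other way, with higher means in mutants at that age. Of these, *ins* (0.857 against 0.273 FPKM, limma adjusted p = 0.638) and *sst2* (limma adjusted p = 0.495) were not called at 5 dpf. At 7 dpf the mean of *ins* was 1.81 FPKM in mutants and 1.85 FPKM in siblings (limma adjusted p = 0.506). Of 6 liver markers, 3 were called lower at 5 dpf and 6 at 7 dpf, with median log2 fold changes of -1.54 and -2.15, and 5 of 7 enterocyte markers were called lower at each age, with medians of -2.29 and -2.47. The largest were those of *fabp10a*, a liver fatty acid binding protein (-3.35 and -4.05), and *cyp3a65*, an intestinal cytochrome (-3.13 and -3.49). The medians of the 9 proteases, -4.65 and -5.39, were lower than those of every other list here, a difference that was not tested. Lists of low genes, such as the acinar transcription factors, have changes understated on this scale.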

How the data were processed

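RNA-seq of 12 pools of whole larvae (3 per genotype and age) was analysed. The authors mapped reads to GRCz11 and deposited 1 FPKM value for each gene in each library. HISAT2 2.0.5 is listed in the submitters' processing notes. Not given in the sources used here: counter, strand setting and annotation release. The library scaling is not named either, but the values show it. It followed the median of ratios size factor, a library's median over genes of reads relative to their geometric mean over libraries. With 14784445 reads and a size factor of 0.897, 1 read over 1 kb was worth 0.0768 FPKM in sibling library 2 of 5 dpf. Mutant library 3 of that age, with 14816326 reads and a factor of 1.16, had 0.0596 FPKM. Whole reads were recovered from the steps between low FPKM values (100% of values within 0.01 of a whole read). The resulting depth, 13403615 to 15084280 reads, limits low genes, and intervals and floors from these reads cover counting error only.

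A gene entered the test when 3 or more libraries reached 0.5 FPKM (23648 genes), with limma 3.58.1 (R 4.3.3) on log2(FPKM + 0.5), a pseudocount that understates changes of low genes. All 4 groups shared 1 model (8 residual degrees of freedom, trended prior), with Benjamini-Hochberg adjustment over all tested genes and a threshold of 0.05. Sums and class shares were compared by exact permutation tests (scipy 1.17.1). The steps were tested on simulated data, but no outcome of that is given here, so it lends nothing to the calls.

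Members and lists were chosen with earlier results of these data known. Of 9 symbols, 8 matched by name and 1 by a RefSeq synonym. Named genes were every member identifier, the 5 genes most like the members, and up to 2 called genes of each other list and age. *serpina1* at 5 dpf, *serpina1l* at 7 dpf, *tmprss15*, *pdx1*, *ins*, *sst2*, *PAX6* and the related copies were named outside this rule, after their values were seen.

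Pairing by replicate number was checked across genes, as the correlation of same-numbered mutant and sibling libraries after removal of group means. It was 0.272, 0.129 and 0.217 at 5 dpf, where the numbers were taken to pair the libraries on these values alone, and 0.054, 0.087 and -0.023 at 7 dpf. Alternatives were other pseudocounts, filters and scalings, a replicate block, library weights, voom on recovered reads and leaving out libraries. Of the scalings, median of ratios is that of the deposited values, so its outcome was fixed in advance and is no check.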

Additional observations from a re-analysis of the deposited data

How the results depend on the processing

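The count of proteases called lower in mutants held at 9 of 9 at 7 dpf under each of 24 alternatives. Among the 24, the median of ratios scaling repeats that of the deposited values and is no separate check. At 5 dpf the count ran from 7 to 9, with 8 without mutant library 1 and 7 without sibling library 2. With the replicate block it was 9 at each age, and the block, over all libraries or within each age, changed no call of a protease in any comparison. Scaling by TPM moved the median log2 fold change of all tested genes from 0.02 to 0.18 at 5 dpf and from 0.01 to 0.20 at 7 dpf, and the calls of all genes from 155 higher and 511 lower to 258 and 325 at 5 dpf, and from 426 and 768 to 1344 and 503 at 7 dpf. The protease calls stayed, since their changes are far larger than this shift. The sums of the 10 genes differed by -5.20 to -3.95 at 5 dpf and -6.70 to -5.09 at 7 dpf without 1 library, and the trypsin share by -0.995 to 1.25 and by -12.2 to -7.00 percentage points.

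The 2 genes called higher with age in siblings became 1 with a pseudocount of 0.1, without a filter and with TPM scaling, 1 to 2 without 1 library, and 7 in the fit of siblings alone and without both mutant libraries numbered 1 (9.99% and 12.1% of all tested genes). The 1 gene called with age in mutants became 6, and the 0 called for the difference became 5, only without both of these libraries, where *prss1* (-1.69), *ctrl* (-1.31) and *CELA1* ENSDARG00000017314 (-1.44) were called with the opposite sign between the ages in mutants. The uncalled estimates of *ela2*, *ela2l* and *ela3l* turned negative too (-0.42, -0.46 and -0.46). This last alternative was chosen after seeing the data. Each group left with 2 libraries is assumed to vary like the others.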
